A study of Mus musculus with 32 samples.

Results

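Cuzd1, Kap, Scgb1a1, Prap1, Ly6f, Tff1 and Il24 are 7 epithelial genes that were followed in the uterus of each mouse from the non-pregnant state (NP) to late pregnancy (E17.5, with E for embryonic day). They are 7 of the 13439 genes measured, and the array holds 1 probe for each of them. They were chosen by their log2 values in these same mice, which were high in later pregnancy. Their values in later groups against earlier groups are therefore a description and carry no test. Tests were made of E6.5 against NP, E8.5 against E6.5, E17.5 against E15.5 and differences between mice of 1 time point. The genes were chosen on the same log2 values, so these tests and the counts of genes that passed are not independent of the choice. All mice were FVB/N, and each of the 32 arrays holds the RNA of 1 mouse. NP, E6.5 and E8.5 held 4 mice each, and the 4 later groups (E10.5, E12.5, E15.5, E17.5) held 5 each. Embryonic days run from the morning on which a vaginal plug was found. In pregnant mice the uterine wall at implantation sites was used after the conceptus had been taken out and decidual tissue scraped off. NP mice were taken at random, and the labels give no cycle stage. The dissection is described for pregnant mice only, so pregnancy and dissection cannot be told apart in any comparison with NP.

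The uterine lumen and its glands are lined by a simple epithelium that secretes proteins, lipids and ions into the lumen. Oestrogen and progesterone set which products it makes, and the secretion changes between the cycle, implantation and the weeks in which the placenta feeds the embryo. Cuzd1 encodes a protein with CUB and zona pellucida domains that is also known from the secretory granules of pancreatic acinar cells. Kap is the kidney androgen-regulated protein of mice, a product of the proximal tubule. Scgb1a1 is the secretoglobin also called uteroglobin, found in the airway and, in rabbits, in the uterine lumen. Prap1 is a proline-rich acidic protein of the intestine and the uterus. Ly6f belongs to the Ly6 family, whose members are mostly anchored in the cell membrane by a lipid, so the word secreted is not certain for it. Tff1 is a trefoil peptide of gastric mucus, and Il24 is a cytokine of the IL-10 family.

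The stretch just before each gene's start is shown because these genes were chosen for their course over pregnancy and the letters that steroid and nuclear receptors bind can be read in it. RefSeq (build GRCm38.p6) gave the 250 bases before the start for 4 of the 7 genes. They lie at chr7:131322293-131322542 on the minus strand for Cuzd1, chr6:133853668-133853917 on the minus strand for Kap, chr7:140093146-140093395 on the plus strand for Prap1 and chr15:75268171-75268420 on the plus strand for Ly6f. All are promoter sequence upstream of the annotated start. The capitals mark matches to GGTCA (a motif bound by nuclear receptors, on either strand, so TGACC as well), TATAAA (the TATA box, sense strand) and GGGCGG (the GC box, either strand, so CCGCCC as well).
Cuzd1: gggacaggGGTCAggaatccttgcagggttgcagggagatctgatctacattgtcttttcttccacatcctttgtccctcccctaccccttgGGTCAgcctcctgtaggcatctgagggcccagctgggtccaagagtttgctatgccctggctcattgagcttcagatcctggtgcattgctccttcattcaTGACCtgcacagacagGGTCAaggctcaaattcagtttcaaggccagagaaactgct
Kap: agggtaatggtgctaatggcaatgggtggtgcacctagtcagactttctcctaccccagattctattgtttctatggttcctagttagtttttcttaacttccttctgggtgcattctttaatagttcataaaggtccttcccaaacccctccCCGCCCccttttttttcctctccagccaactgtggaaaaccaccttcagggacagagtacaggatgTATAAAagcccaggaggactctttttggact
Prap1: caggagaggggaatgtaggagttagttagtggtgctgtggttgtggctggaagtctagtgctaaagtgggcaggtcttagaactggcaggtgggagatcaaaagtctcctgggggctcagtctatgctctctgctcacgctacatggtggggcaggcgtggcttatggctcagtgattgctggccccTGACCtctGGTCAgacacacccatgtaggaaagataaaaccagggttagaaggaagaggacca
Ly6f: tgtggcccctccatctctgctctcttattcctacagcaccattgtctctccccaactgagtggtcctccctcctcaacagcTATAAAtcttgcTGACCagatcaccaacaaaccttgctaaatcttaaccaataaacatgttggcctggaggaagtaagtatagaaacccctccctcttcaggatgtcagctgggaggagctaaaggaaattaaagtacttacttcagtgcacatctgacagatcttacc
Cuzd1 held 4 copies of GGTCA or TGACC, at 242 to 238, 158 to 154, 57 to 53 and 41 to 37 bases before its start. Prap1 held TGACC at 63 to 59 and GGTCA at 55 to 51, with 3 bases between them. Kap held TATAAA at 31 to 26 bases before its start and a GC box at 97 to 92. Ly6f held TATAAA at 169 to 164 and TGACC at 157 to 153. Of 32851 windows of the same length, 35.2% held GGTCA, 7.59% TATAAA and 32.7% the GC box. None of the 4 windows held the full oestrogen response element (0.0639% of windows, both strands), which contains GGTCA, nor did any hold AGAACA (16.1%, both strands) or TGTTTAC (3.17%, both strands). A match is a description of these letters and not a bound site.

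The arrays were alike in depth, with 13280 to 14357 probes detected on each (median 13869; detection p below 0.05). The tissue showed smooth muscle and epithelial markers, and 14 of 14 measured genes of a uterine epithelium list (keratins, claudins, Cdh1 and others) were detected on 16 or more of the 32 arrays. The mean log2 value of that list was lowest in E8.5 replicate 3, at 5.36, against 6.71 to 7.44 in the other E8.5 mice. Against the median of their time point, placenta or yolk sac genes were high in 7 libraries. These were 1 at E10.5 (replicate 4) and 2 each at E12.5 (1 and 3), at E15.5 (2 and 3) and at E17.5 (2 and 5). Without them the number of the 7 genes that passed was the same in each of the 4 tests given below (1, 2, 1 and 2), and single values are given without them only for E17.5 against E15.5. Levels below are the deposited log2 values, which ran between 4.22 and 14.69 over all probes, and a difference of 1 is a doubling. In whole tissue, fewer cells of a type and less RNA per cell cannot be told apart.

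Cuzd1 was not well above background at NP or E6.5 and was among the brightest probes of the array in late pregnancy. Its log2 values were 4.73, 4.41, 4.48 and 4.35 at NP, 4.51, 4.46, 4.69 and 4.54 at E6.5, and 7.09, 7.28, 4.60 and 5.73 at E8.5. They were 9.02, 10.43, 9.58, 9.18 and 8.85 at E10.5, and 12.94, 12.78, 13.02, 11.99 and 14.05 at E12.5. They were 14.37, 14.34, 14.41, 14.34 and 14.16 at E15.5, and 14.32, 14.36, 14.28, 14.11 and 14.14 at E17.5. Each group from E10.5 to E15.5 lay wholly above the one before it. At E8.5 only replicate 3, at 4.60, lay within the range of the earlier mice. The mean was 14.24 ± 0.11 (SD, n = 5) at E17.5 and 4.55 ± 0.10 (n = 4) at E6.5. That is at least 611-fold higher at E17.5. Here and below, "at least" sets the mean of the later group against the lowest signal among probes detected on each earlier array (or the gene's own value where that was higher), because the gene itself was not detected on any of them. At E15.5 and E17.5 the probe ranked between 18 and 44 of 20169 on every array, so little room was left above it on the scale.

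Ly6f had nearly the same course. Its log2 values were 5.48, 4.82, 4.72 and 5.27 at NP, 4.41, 4.50, 5.15 and 4.48 at E6.5, and 6.69, 6.67, 4.81 and 5.70 at E8.5. They were 8.53, 9.04, 9.36, 8.56 and 8.85 at E10.5, and 10.13, 9.89, 10.06, 9.87 and 11.08 at E12.5. They were 11.80, 11.29, 11.89, 11.46 and 12.14 at E15.5, and 11.83, 11.72, 11.67, 11.60 and 11.19 at E17.5. Each group from E10.5 to E15.5 lay wholly above the one before it, and E17.5 overlapped with E15.5. Ly6f averaged 11.60 ± 0.24 (SD, n = 5) at E17.5 and 4.64 ± 0.35 (n = 4) at E6.5, where it was detected in 1 of 4 mice, a difference of 6.96. The Ly6 genes form a family of similar copies on the genome, and whether the probe also takes up signal from another copy was not tested.

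Scgb1a1 appeared at the same stage as Cuzd1 and Ly6f but with far more spread between mice. Its log2 values were 4.65, 4.61, 4.50 and 4.45 at NP, 5.00, 4.62, 4.54 and 4.60 at E6.5, and 6.78, 5.82, 4.60 and 8.18 at E8.5. They were 7.74, 8.51, 7.77, 10.32 and 6.84 at E10.5, and 11.15, 10.92, 10.74, 7.68 and 10.07 at E12.5. They were 10.91, 12.10, 11.22, 11.99 and 10.15 at E15.5, and 10.92, 11.96, 9.17, 9.37 and 9.39 at E17.5. No mouse at NP or E6.5 was detected, E8.5 replicate 3 was as low as those, and the groups from E10.5 on overlapped with one another. The SD between mice in the 4 groups from E10.5 on was 1.31, 1.42, 0.81 and 1.23, in order of day. A list of decidua markers (4 of 6 genes measured) also varied between these mice. At E8.5 and E10.5 the mouse highest in Scgb1a1, replicate 4 in each, had the highest list mean (8.04 and 8.23). So did replicate 1 at E12.5 (7.78) and replicate 2 at E17.5 (7.08). At E15.5 replicate 2 was highest in Scgb1a1 (list mean 7.38) and replicate 3 in the list (7.44). The placenta list (8 of 16 genes measured) varied as well. It was highest in the mouse highest in Scgb1a1 at E8.5 (5.21), E10.5 (8.80), E15.5 (6.95) and E17.5 (5.32). At E12.5 it was highest in replicate 3 (6.38), with 5.29 in replicate 1. A link of Scgb1a1 with either list was not tested. The mean at E17.5 was 10.16, against 4.69 at E6.5, at least 36.1-fold higher.

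Kap was first detected at E12.5, later than the other 6 genes. Its log2 values were 4.54, 4.56, 4.33 and 4.45 at NP, 4.40, 4.72, 4.60 and 4.49 at E6.5, and 4.44, 4.61, 4.32 and 4.39 at E8.5. They were 4.49, 4.74, 4.74, 4.46 and 4.63 at E10.5, and 6.15, 5.76, 5.65, 6.05 and 7.61 at E12.5. They were 11.60, 10.53, 11.02, 10.89 and 10.66 at E15.5, and 13.75, 12.79, 13.67, 13.18 and 13.28 at E17.5. It was detected in no mouse up to E10.5 and in every mouse from E12.5, and the groups at E12.5, E15.5 and E17.5 did not overlap. The mean was 13.33 ± 0.39 (SD, n = 5) at E17.5 and 4.55 ± 0.14 (n = 4) at E6.5, at least 325-fold higher at E17.5.

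Il24 was near background up to E12.5 and higher in the last time points. The log2 values of Il24 were 5.12, 5.20, 5.12 and 5.25 at NP, 4.74, 5.14, 5.03 and 5.25 at E6.5, and 4.49, 4.82, 4.82 and 4.94 at E8.5. They were 5.33, 5.29, 5.29, 5.20 and 5.04 at E10.5, and 5.02, 5.54, 5.89, 5.50 and 5.75 at E12.5. They were 8.02, 7.33, 8.06, 8.38 and 8.39 at E15.5, and 8.08, 8.65, 9.07, 8.97 and 8.61 at E17.5. All mice at E15.5 and E17.5 lay above all earlier mice, and the groups from NP to E12.5 overlapped with a neighbour. It was detected in 4 of 4 mice at NP, 3 of 4 at E6.5 and 0 of 4 at E8.5, all close to the limit. The mean was 8.68 ± 0.39 (SD, n = 5) at E17.5 and 5.04 ± 0.22 (n = 4) at E6.5, a difference of 3.64.

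Prap1 did not keep to later pregnancy. It had log2 values of 12.32, 8.19, 4.49 and 6.61 at NP, 13.72, 14.18, 13.80 and 14.28 at E6.5, and 14.38, 14.18, 5.18 and 14.41 at E8.5. They were 14.35, 14.34, 14.43, 14.15 and 14.27 at E10.5, and 14.43, 14.41, 14.44, 14.36 and 14.43 at E12.5. They were 14.56, 14.60, 14.69, 14.43 and 14.41 at E15.5, and 14.56, 14.58, 14.56, 14.46 and 14.51 at E17.5. Apart from E8.5 replicate 3, every pregnant mouse was above every NP mouse, and the NP mice themselves ran from 4.49 to 12.32. The mean differed by 0.54 between E17.5 and E6.5. The highest value of the whole table, 14.69, was Prap1 in E15.5 replicate 3. The small spread in late pregnancy was measured at the top of the scale, where quantile normalisation gives a value by rank, and the deposited intensities there ran from 19608 to 26589 over the E15.5 and E17.5 mice.

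Tff1 had a peak in mid pregnancy and was lower at the end. Mice had Tff1 values of 4.27, 4.40, 4.26 and 4.31 at NP, 4.33, 4.29, 4.35 and 4.36 at E6.5, and 4.49, 4.43, 4.36 and 6.47 at E8.5. They were 6.77, 8.38, 4.73, 8.14 and 4.79 at E10.5, and 10.30, 10.74, 9.89, 8.31 and 8.98 at E12.5. They were 8.53, 9.69, 8.94, 8.56 and 11.89 at E15.5, and 5.94, 7.74, 5.09, 8.33 and 5.94 at E17.5. It was detected in 1 of 4 mice at E8.5, in 3 of 5 at E10.5 and in all later mice, and the E17.5 mice all lay below the E15.5 mice while the E12.5 and E15.5 mice overlapped. The mean was 6.61 ± 1.37 (SD, n = 5) at E17.5, against 4.33 ± 0.03 (n = 4) at E6.5, at least 3.08-fold higher. At E12.5 it was 9.65 ± 0.99, at least 25.3-fold above E6.5.

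**Figure D1:**
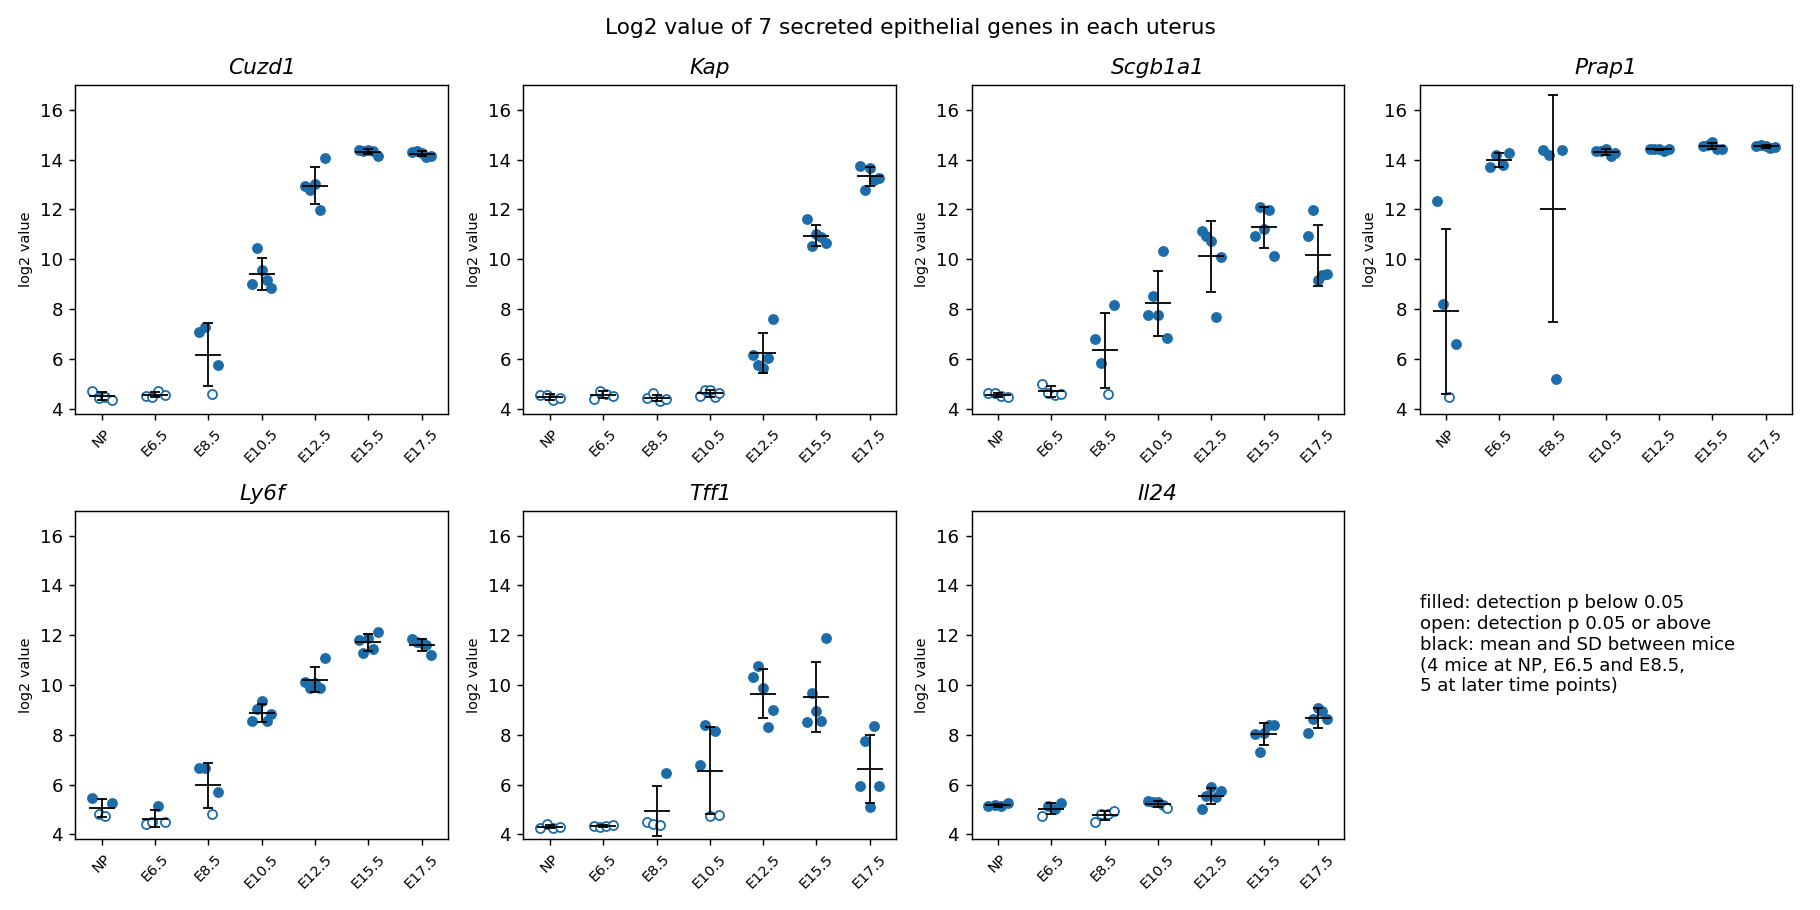
Log2 value of each of the 7 genes (vertical axis) in each mouse by time point (horizontal axis, NP to E17.5), with filled points for detected arrays, open points for arrays not above the detection limit and black bars for the mean and SD. Cuzd1 and Ly6f had higher means at each time point up to E15.5 from E8.5 on, Kap was detected only after E10.5, Prap1 was at 13.72 or above in all E6.5 mice, and Tff1 was lower at E17.5 than at E15.5.

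All 7 genes had E17.5 mice wholly above the E6.5 mice, which the choice of the genes fixes in large part. Over all genes, 11.4% were wholly higher at E17.5 and 14.0% wholly lower. By the mean, the order of time points ended with E15.5 above E17.5 for Cuzd1, Scgb1a1, Prap1 and Ly6f, whose mice at these time points overlapped. Kap and Il24 had their highest mean at E17.5, and Tff1 at E12.5. Over the 32 mice, the 21 pairs of these genes had Pearson correlations between 0.32 (Prap1 and Il24) and 0.99 (Cuzd1 and Ly6f). The mice share the time course, so these correlations mostly hold differences between time points, and they carry no test.

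The early steps were set apart by test. At E6.5 against NP, 1 of the 7 genes passed (adjusted p at most 0.05, limma over all genes), where 8.22% of all genes passed in either direction, 4.59% higher and 3.63% lower. That gene was Prap1, higher by 6.09 ± 1.28 (SE) in E6.5 mice (adjusted p = 0.00178), with 4 of 4 mice above all NP mice. Over all genes, 6.63% had E6.5 mice wholly above the NP mice and 5.55% wholly below them. Cuzd1, Kap, Scgb1a1 and Tff1 were detected in no mouse of either group, so the comparison sets no limit on a difference for them. Ly6f differed by -0.43 (adjusted p = 0.514) and Il24 by -0.14, with a 95% interval of -0.55 to 0.28. Without E8.5 replicate 3, which takes part in the shared estimate of spread, the adjusted p of Prap1 was 2.31e-06.

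Between E6.5 and E8.5, Cuzd1 and Ly6f rose. Both passed in E8.5 against E6.5, 2 of the 7 genes, where 3.85% of all genes passed, 2.14% higher and 1.70% lower. Cuzd1 was higher by 1.62 ± 0.39 (SE; adjusted p = 0.0169, limma) and Ly6f by 1.33 ± 0.31 (adjusted p = 0.0140). For both, 3 of 4 E8.5 mice were above all E6.5 mice, with E8.5 replicate 3 as the exception. Without that mouse the differences were 2.15 (adjusted p = 0.000486) and 1.71 (adjusted p = 0.000683). Both calls were lost when E6.5 replicate 2, E8.5 replicate 1 or E8.5 replicate 2 was left out, with adjusted p between 0.0525 and 0.0814. They were also lost without background correction, where Cuzd1 differed by 0.64 (adjusted p = 0.211) and Ly6f by 0.50 (adjusted p = 0.175), and with only these groups in the fit (adjusted p of 0.101 and 0.0852). Since no E6.5 mouse had detected Cuzd1, its difference there is a bound, at least 2.28-fold. Krtdap, a gene of stratified squamous epithelium, was higher by 3.70 in this step (adjusted p = 5.09e-05), and without the 5 libraries high in a list of such genes, a choice made after seeing the data, Cuzd1 differed by 1.30 (adjusted p = 0.124) and Ly6f by 1.01 (adjusted p = 0.120). Scgb1a1 differed by 1.65 ± 0.73 (adjusted p = 0.224). Prap1 differed by -1.96 ± 1.28 (adjusted p = 0.468) and, without E8.5 replicate 3, by 0.33 (adjusted p = 0.908).

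Between E15.5 and E17.5, Kap rose further. It was higher by 2.39 ± 0.24 (SE) at E17.5, a 5.25-fold difference (adjusted p = 1.05e-06, limma), and 5 of 5 E17.5 mice lay above all E15.5 mice. It was 1 of the 7 genes that passed, where 0.439% of all genes passed, 0.305% higher and 0.134% lower. The yolk sac list also moved here, with 5 of its 11 measured genes higher at E17.5 and a median difference of 2.68. The E17.5 mice with the highest yolk sac list means, replicates 2 (11.47) and 5 (9.21), had Kap values of 12.79 and 13.28, the lowest and the median of the group. When the 7 libraries rich in placental or yolk sac transcripts were left out, Kap differed by 2.48 (adjusted p = 8.44e-05). The yolk sac list was higher in all E17.5 mice (lowest 6.51) than in any E15.5 mouse (highest 5.86). Leaving out these libraries therefore does not remove the yolk sac difference, and its part in the Kap difference was not tested. Tff1 differed by -2.91 ± 0.69, with 5 of 5 E17.5 mice below all E15.5 mice, and missed the threshold (adjusted p = 0.0501). Over all genes, 0.997% had E17.5 mice wholly above the E15.5 mice and 0.640% wholly below them. Tff1 passed under 14 of 44 other settings, and its adjusted p was 0.331 without the 7 libraries. A list of stratified squamous epithelium (6 of 8 genes measured) varied between these same mice. Its mean was 6.96 and 6.66 in E17.5 replicates 4 and 2, which had Tff1 values of 8.33 and 7.74, against 4.92 to 5.31 in the other E17.5 mice. It was 9.11 in E15.5 replicate 5, which had the highest Tff1 value of 11.89, against 5.51 to 5.65 in the other E15.5 mice. Of the list, 1 gene passed in this step, Krtdap, which fell by 2.00 (adjusted p = 0.0333). Without the 5 libraries high in that list, which include these 3, Tff1 differed by -3.27 (adjusted p = 0.0229). Il24 differed by 0.64 ± 0.18 (adjusted p = 0.153) and Scgb1a1 by -1.11 ± 0.65 (adjusted p = 0.687). For Cuzd1 the 95% interval of the difference was -0.80 to 0.63 and for Ly6f -0.68 to 0.45. The interval for Prap1 was wide, at -2.35 to 2.34.

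**Figure D2:**
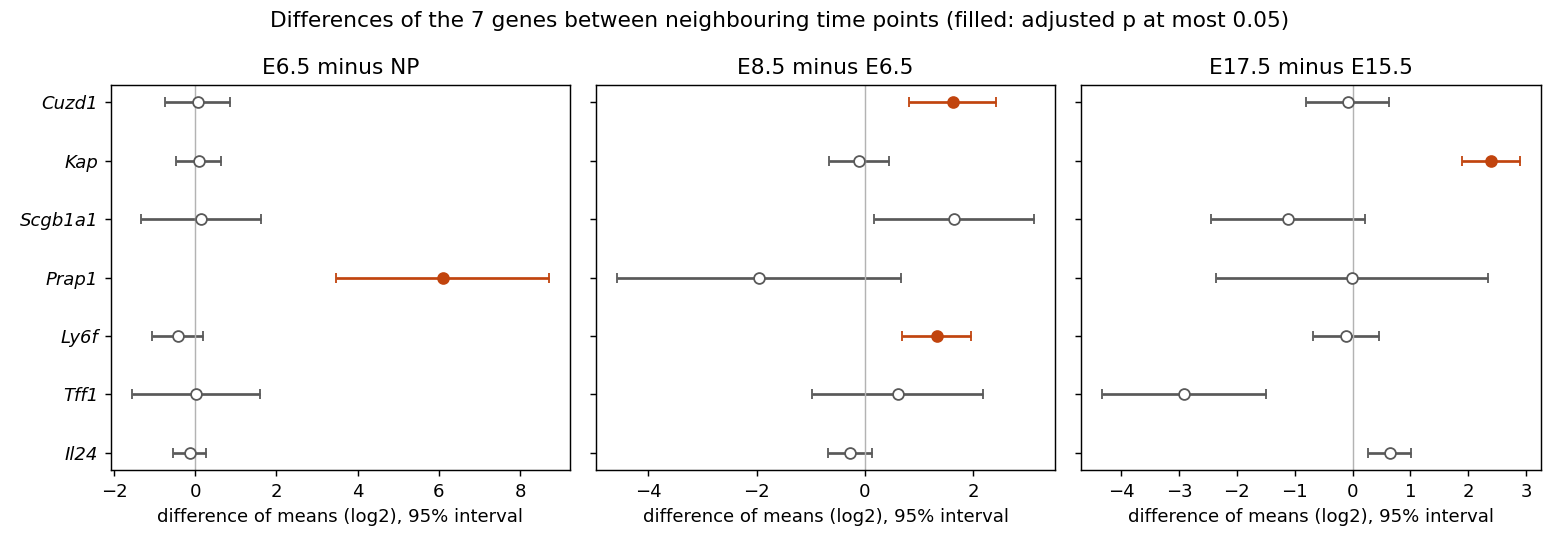
Difference of the group means of each gene on the log2 scale (horizontal axis) with its 95% interval, in E6.5 minus NP, E8.5 minus E6.5 and E17.5 minus E15.5. Filled points passed the adjusted p of 0.05, namely Prap1 in the first, Cuzd1 and Ly6f in the second and Kap in the third, and Tff1 at -2.91 in the third did not. Cuzd1, Kap, Scgb1a1 and Tff1 in the first and Kap in the second were not detected in either group, so those points compare background.

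The epithelium of the samples was not constant over the course. The uterine epithelium list had a median over mice of 8.37 at NP. Its medians in the 6 pregnant groups, in order of embryonic day, were 6.86, 6.87, 8.11, 8.44, 9.38 and 9.75. At E17.5 against E6.5, 14 of 14 list genes were higher (median difference 2.67), where 29.3% of all genes passed, 12.3% higher and 17.0% lower, with a median of -0.04. At E6.5 against NP, 9 of 14 were lower and 0 higher (median -1.66), beside 3.63% lower and 4.59% higher over all genes. In E8.5 against E6.5 and in E17.5 against E15.5 none of the 14 passed by limma, with medians of -0.25 and 0.42. Over all genes, 3.85% and 0.439% passed in these steps. Krt8, Krt19 and Krt7, keratins of simple epithelia, were higher at E17.5 than at E6.5 by 4.39, 4.48 and 4.53, and Spint1, an inhibitor of membrane proteases, by 2.11.

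The mean of that list was 2.84 higher at E17.5 than at E6.5. Beside it, Cuzd1 was higher by at least 9.25, Kap by at least 8.35 and Scgb1a1 by at least 5.18, all on the log2 scale. Ly6f was higher by 6.96 and Il24 by 3.64, from E6.5 values that were detected in only 1 of 4 mice for Ly6f and 3 of 4 for Il24. For Tff1 the bound of 1.62 does not say on which side of the list it lay, and Prap1 was near the top of the scale at both time points. How much of each gene's course follows the amount of epithelium was not tested across time points.

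Within time points the amount of epithelial signal could be set against each gene. The slope of a gene on the epithelium list was fitted over all mice with time point as a block. Of the 7 genes, 2 had a positive slope that passed, where 1.73% of 13425 genes had one and 0.492% had a negative one. Prap1 changed by 3.25 ± 0.45 (SE) for each log2 unit of the list (adjusted p = 2.18e-05) and Ly6f by 0.63 ± 0.14 (adjusted p = 0.00872). E8.5 replicate 3 weighs on both, and without it the slope of Prap1 was 2.02 (adjusted p = 0.00454) and that of Ly6f 0.47 (adjusted p = 0.160). Cuzd1 had a slope of 0.65 ± 0.20 (adjusted p = 0.0811) and, without that mouse, of 0.31 (adjusted p = 0.650). Kap, Scgb1a1 and Il24 had slopes of 0.28, 0.28 and 0.10, and Tff1 of -0.40, with adjusted p of 0.485 or above. In the NP mice, Prap1 was 12.32 where the list mean was highest (9.57) and 4.49 where it was lowest (7.86).

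**Figure D3:**
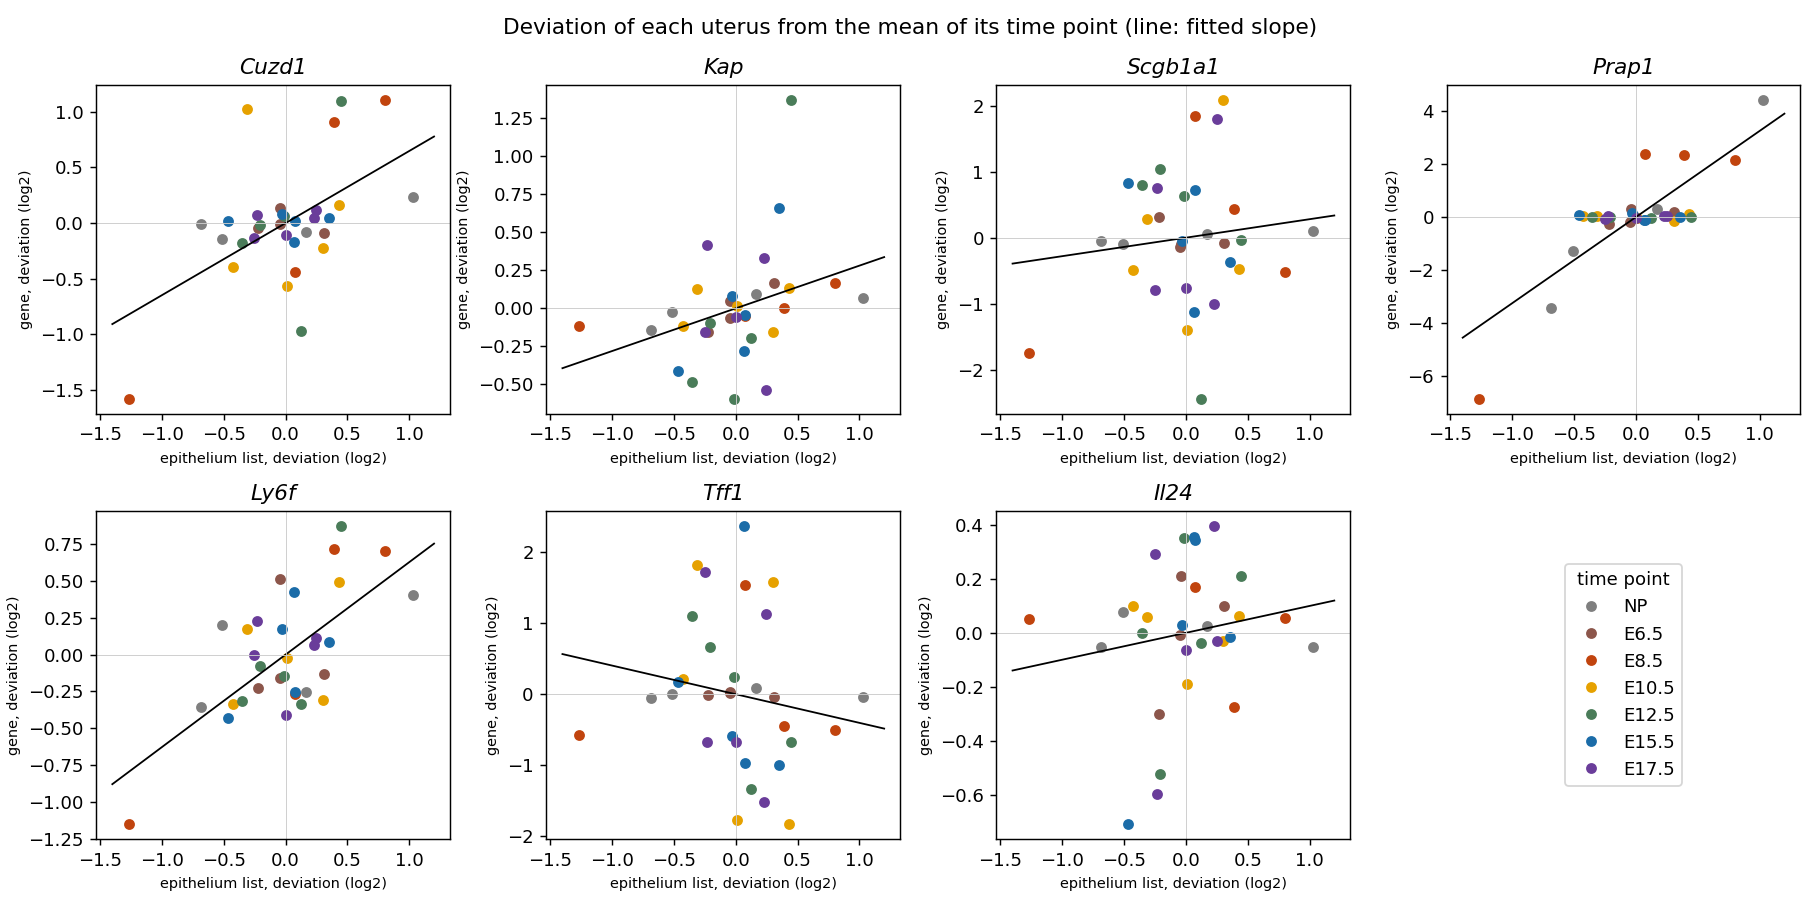
Deviation of each gene (vertical axis, log2) against the deviation of the uterine epithelium list mean (horizontal axis, log2), both from the mean of the time point, with 1 point per mouse and the fitted slope as a line. The Prap1 line of 3.25 is carried by NP and E8.5 mice, since the other Prap1 values lie near 0, and the leftmost point of each panel is E8.5 replicate 3.

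**Figure D4:**
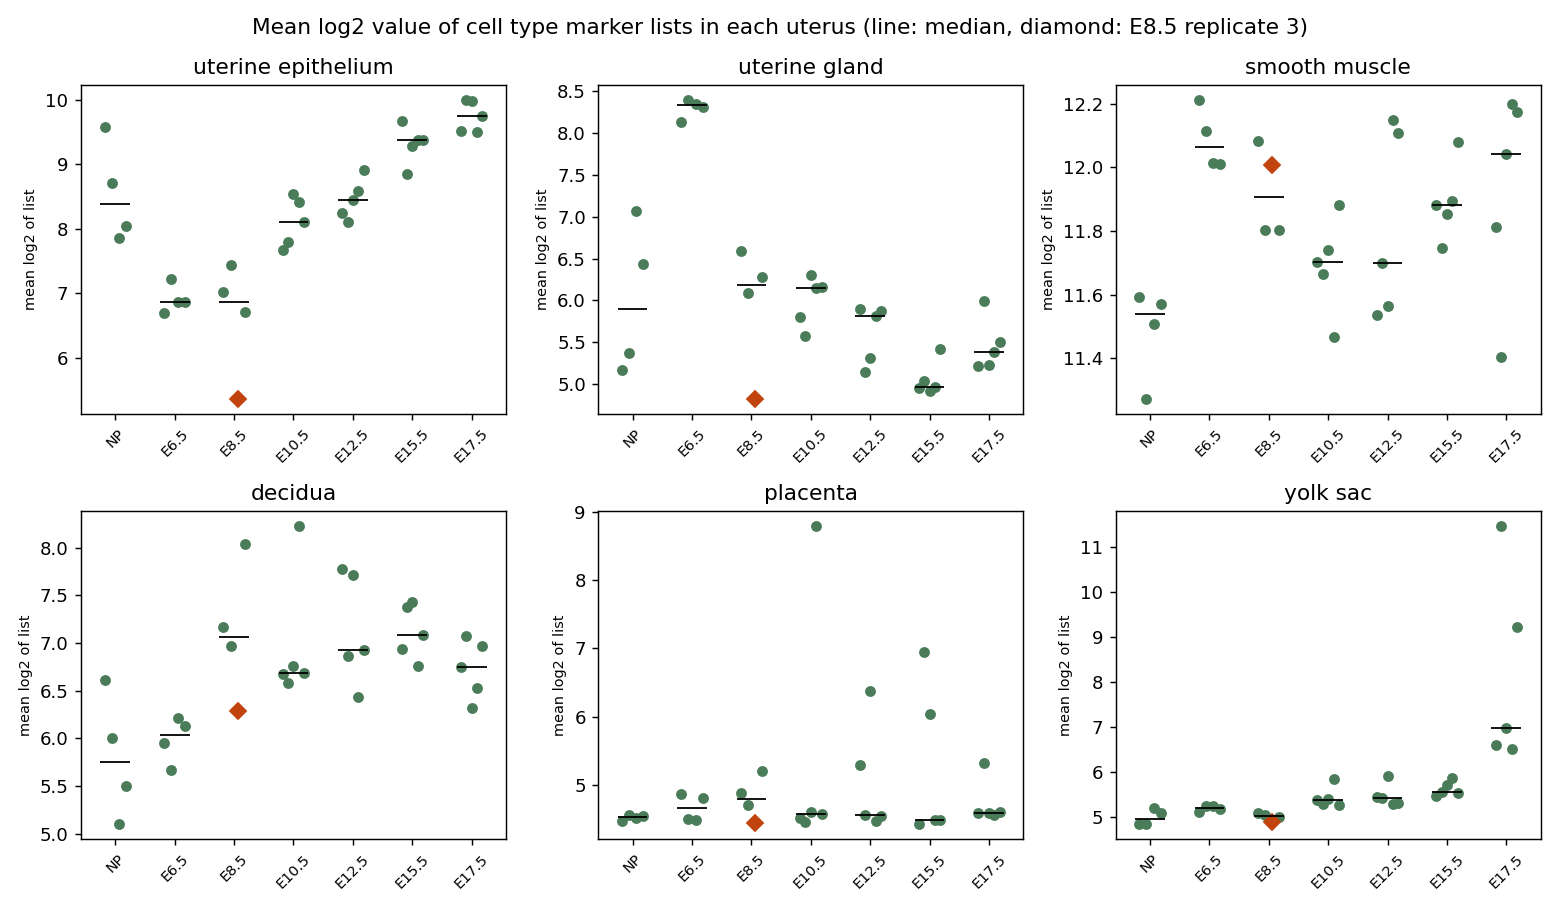
Mean log2 value (vertical axis) of 6 cell type marker lists in each mouse by time point (horizontal axis), with the median as a line and E8.5 replicate 3 as a diamond. The epithelium list was lowest at E6.5 and E8.5 and at 9.75 (median) at E17.5, while the gland list had its highest median, 8.33, at E6.5. At E6.5 against NP, 3 of the 8 measured gland genes passed higher and 3 lower by limma (median difference -0.41). Over all genes, 4.59% passed higher and 3.63% lower. The yolk sac list was higher in all E17.5 mice than in any E15.5 mouse and stood out in 2 of them.

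Organs in which these genes are best known were checked by other markers. Of 5 measured genes of pancreatic acinar cells (Amy2a5, Cela2a, Clps, Cpb1 and Ctrb1), 0 were detected on 16 or more of the 32 arrays, and the list mean lay between 4.50 and 4.85 in all mice. At E17.5 against E6.5, 1 of the 5 passed higher and 0 lower by limma (median difference 0.01). Over all genes, 12.3% were higher and 17.0% lower in that comparison. Of 4 kidney tubule genes 1, Umod, was detected so often, and of 2 lung genes 0. The lung list mean was 6.81 in E15.5 replicate 5, the mouse with the highest Tff1 value, against a group median of 5.02. Of 5 gastric surface genes 1 was detected so, and Gkn1, a gastric mucus protein, was higher at E17.5 than at E6.5 by 2.18 (adjusted p = 0.000992, limma) while Gkn3 fell by 1.17.

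Other secreted products of the epithelium were divided. Of 18 measured genes of a list of secreted epithelial proteins, 9 rose and 3 fell at E17.5 against E6.5 (median 1.61). Over all genes 12.3% were higher and 17.0% lower. The epithelium list itself had a median of 2.67, and the part of epithelial content in this count was not tested. The 3 that fell were gland products of implantation, namely the serine protease Prss28, which fell by 8.30, its relative Prss29, which fell by 8.81, and the trypsin inhibitor Spink1, which fell by 4.98. Prss28 was at 4.45 ± 0.12 at E17.5 and 12.75 ± 0.37 at E6.5, the reverse order of Cuzd1. Among those that rose were Dmkn (dermokine, 4.35 higher), the mucin Muc1 (3.09) and the protease inhibitor Slpi (2.83). Dmkn rose at E8.5 against E6.5 by 4.67, in the same step as Cuzd1 and Ly6f. It was the 1 gene of the list that rose in this step, while 4 fell, beside 2.14% higher and 1.70% lower over all genes. Prss28 fell by 6.53, Prss29 fell by 5.21, Spink1 fell by 6.00 and Clu, clusterin, fell by 1.92. At E17.5 against E15.5, 2 of the 18 rose and 0 fell, beside 0.305% higher and 0.134% lower over all genes.

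Steroid-responsive genes were read from 2 lists. Of 12 measured oestrogen-induced uterine epithelial genes, 6 rose and 0 fell at E17.5 against E6.5 (median 1.68), among them Sprr2f (5.39 higher), Muc1, Aqp5 (a water channel, 3.87) and Ltf (lactoferrin, 4.01). Beside them, 12.3% of all genes were higher and 17.0% lower, and the epithelium list itself had a median of 2.67, so the part of epithelial content in this count was not tested. Of 12 measured progesterone response genes, 0 rose and 6 fell (median -0.52), among them Nr2f2, which fell by 1.67, Hand2, which fell by 1.69, Gata2, which fell by 1.19, and Hoxa11, which fell by 1.54. All of these are transcription factors, and the list holds genes of stroma as well as epithelium. In E17.5 against E15.5, the step in which Kap rose, no gene of either list passed by limma. Only 0.439% of all genes passed there, so for lists of this size such a count says little.

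Relatives of these genes went both ways. At E17.5 against E6.5, 8 of 16 measured genes of the Ly6 and uPAR domain family rose and 1 fell. Over all genes 12.3% rose and 17.0% fell. The median difference of the family was 0.86, against 2.67 for the epithelium list, and the part of epithelial content was not tested. Ly6d (2.81), Ly6e (0.98) and Plaur, the urokinase receptor (1.67), were among the higher, and Ly6h fell by 2.46. In E8.5 against E6.5, where Ly6f rose, 1 of the 16 did, Ly6c1 (1.24), beside 2.14% of all genes. Of the trefoil and secretoglobin genes, Tff2 and Tff3 differed by 0.09 and 0.50 (adjusted p of 0.757 and 0.212) and Scgb3a1 fell by 1.04. Of 7 CUB and zona pellucida genes, 1 rose (Cdcp1, 1.18) and 1, Umod, fell by 1.56, counts near the 12.3% and 17.0% of all genes.

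Il24 acts through receptors made of Il20rb with Il20ra or Il22ra1 and signals by STAT3. Of 10 measured genes of the IL-10 family and its receptors and kinases, 2 rose at E17.5 against E6.5, namely Il20rb (1.36 ± 0.42, adjusted p = 0.0145) and Il10rb (0.76 ± 0.23, adjusted p = 0.0118), and 1, the kinase Jak1, fell by 0.52, beside 12.3% and 17.0% of all genes. Il20ra differed by 0.43 (adjusted p = 0.0509). Il20rb was at 8.46 ± 0.32 at E17.5 and 7.10 ± 0.33 at E6.5. Il10 itself was at 4.81 ± 0.35 at E17.5 and 4.59 ± 0.15 at E6.5.

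The genes with the most similar course were ranked by Pearson correlation over the 32 mice, as a description that rests on the shared time course. For Cuzd1 they were Ly6f (0.99), Timd2 (0.98) and Folr1, a folate receptor (0.97), and for Ly6f they were Cuzd1, Timd2 (0.98) and Gstp3 (0.98). For Kap they were Il24 (0.97), Fcmr (0.97) and Cyp27b1, the vitamin D activating enzyme (0.97). Il24 had the same 3 in Kap, Fcmr (0.96) and Cyp27b1 (0.95). For Scgb1a1 they were 4930486L24Rik (0.97), Cyp11a1, the first enzyme of steroid synthesis (0.96), and Atp6v1h (0.95). Prap1 and Tff1 had less similar neighbours in this ranking. For Prap1 they were Sftpd, a collectin (0.91), Il31ra (0.88) and Slc5a8 (0.85), and for Tff1 they were Rusc1 (0.87), Il1r2 (0.86) and P2rx4 (0.86).

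Fcmr, which encodes a receptor for IgM, is also the gene directly next to Il24 in the RefSeq order, an adjacency looked up after its values were seen. It was at 6.43 ± 0.30 at E17.5 and 4.46 ± 0.10 at E6.5. Pigr, the transporter of polymeric immunoglobulin and the next gene beyond it, had a correlation with Il24 of 0.51, and Il10, on the other side, of 0.00. Tff2 and Tff3, the neighbours of Tff1, had correlations with it of 0.36 and -0.01. Dmbt1, near Cuzd1, had one of -0.46.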

How the data were processed

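Total RNA of 32 uteri, 1 mouse per array, was hybridised to Illumina MouseRef-8 arrays, and RNA of each mouse was pooled after extraction. The authors deposited an intensity and a detection p-value for each of 25697 probes. The authors also deposited log2 values, made by background correction on control probes, quantile normalisation and removal of 5528 probes with a detection p above 0.05 on all arrays. These 20169 probes were used. The steps were repeated from the intensities, with the background inferred from the detection p-values in place of control probes. The repeated values differed from the deposited ones by at most 0.0339. A gene must therefore have been detected somewhere to be measured, and all 7 members were. Of these probes, 18903 carried 1 gene symbol, 0 several and 1266 none, and 13430 of 13439 genes matched RefSeq. Where several probes carried the same gene symbol, the probe with the highest SD over the 32 arrays was used. Genome coordinates of probes were not used.

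Means of all 7 groups were fitted together with limma 3.58.1 in R 4.3.3, with Benjamini-Hochberg adjustment over all genes, and checked on simulated data. p-values measure the spread between mice. The number of arrays limits the precision. The labels and files used here name no slide or scan, so batches were not examined. The 7 genes and the gene lists were chosen with earlier results of these data known. All 7 genes are named, and of each list up to 4 genes with the smallest adjusted p at E17.5 against E6.5, beside others named where a member's step or neighbour was concerned, chosen after their values were seen. Per gene, the 3 genes with the highest correlation are named. Alternatives covered background correction, normalisation, the probe filter and choice, weights, the fit, the replicate number as a block and leaving out mice.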

Additional observations from a re-analysis of the deposited data

Results flagged for a closer look

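Within each time point, the highest or lowest mouse of each of the 7 genes was compared with the rest of its group (Dixon's gap over the range). Of 49 groups, 7 had a mouse beyond the limit, where the limit is set so that chance passes it in about 5% of groups. The farthest was Prap1 in E8.5 replicate 3, at 5.18 while the nearest other mouse was at 14.18, the mouse with the lowest epithelium list mean (5.36). Tff1 was at 6.47 in E8.5 replicate 4, the nearest mouse being at 4.49. Kap was at 7.61 in E12.5 replicate 5, the nearest at 6.15, and Ly6f in that same mouse was at 11.08, the nearest at 10.13. Ly6f was at 5.15 in E6.5 replicate 3, the nearest at 4.50. Scgb1a1 was at 5.00 in E6.5 replicate 1, the nearest at 4.62, neither detected. Cuzd1 was at 14.16 in E15.5 replicate 5, the nearest at 14.34, within a range of values at the top of the scale.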

How the results depend on the processing

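At E6.5 against NP, 1 of the 7 genes passed under all 44 alternatives, Prap1, with a difference between 4.95 and 7.57 and an adjusted p between 2.31e-06 and 0.0341. At E17.5 against E15.5 Kap passed under all 44, with a difference between 2.29 and 2.57 and an adjusted p between 1.86e-10 and 0.00299. The count there was 2 rather than 1 with background correction repeated from the intensities, no background correction, median scaling, or probes detected on at least 4 arrays, and 3 with array quality weights. Tff1 (adjusted p between 0.00999 and 0.331 over all alternatives) or Il24 (between 0.0302 and 0.910) was the added gene, and both with weights. Leaving out 1 mouse at a time gave 1 to 2. At E8.5 against E6.5 the count was 0 without background correction and with only those groups in the fit, and 0 to 2 when 1 mouse was left out. For the slope on the epithelium list it was 1 without background correction and with 4 keratins in place of the list, and 1 to 3 when 1 mouse was left out. Without E8.5 replicate 3 it was 1, and Cuzd1 was added without E10.5 replicate 2 (adjusted p = 0.0138) or E12.5 replicate 4 (adjusted p = 0.0368). Leaving out each mouse was planned, and that E8.5 mouse was singled out after seeing the data. It changed no count in the other comparisons. Leaving out the 5 libraries high in stratified squamous genes, added after seeing the data, gave 1 gene at E6.5 against NP, 0 at E8.5 against E6.5, 2 at E17.5 against E15.5 (Tff1 added) and 2 for the slope. Without background correction the described differences between E17.5 and E6.5 were 7.40 for Cuzd1, 6.5 for Kap, 3.39 for Scgb1a1, 4.77 for Ly6f, 1.04 for Tff1 and 1.96 for Il24. No called difference changed sign.

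The labels do not give the replicate numbers as pairs. Over genes, the deviations of same-numbered mice from their group means had correlations of -0.31 to 0.23. Differently numbered mice were not set beside them, so these values do not settle whether a number stands for a shared order or batch. With the replicate number as a block, the count was 1 at E6.5 against NP, 2 at E8.5 against E6.5, 2 at E17.5 against E15.5 (Tff1 added, adjusted p = 0.0463) and 2 for the slope. Probes that are not detected, as Cuzd1, Kap and Tff1 at NP and E6.5, give only a bound for a change, and probes at the top of the scale understate one.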
